A study of Mus musculus with 24 samples.

Results

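The subunits of the oxidative phosphorylation system were examined in differentiated mouse ES cells with and without REV-ERBα and REV-ERBβ. The genes were taken by symbol from the exon expression table: the numbered Ndufa, Ndufb, Ndufc, Ndufs and Ndufv genes, all genes beginning with Uqcr, Cox4 to Cox8 or Atp5, and Sdha, Sdhb, Sdhc, Sdhd, Cyc1 and Cycs. This gave 86 of the 33079 genes in the table, with 37 under complex I, 4 under complex II, 9 under complex III, 18 under complex IV, 17 under complex V, and Cycs, the soluble carrier cytochrome c. Control cells (WT) carried a Per2::Luciferase knock-in allele, and the Rev-erba/Rev-erbb deficient cells (KO) carried the same knock-in with both receptor genes disrupted by CRISPR/Cas9. Both were differentiated for 28 days through embryoid bodies, received 100 nM dexamethasone and were sampled at 4 h steps between 12 and 56 h, with 1 library per genotype and time point from the pooled RNA of 3 embryoid bodies. The 12 time points of a genotype therefore served as its replicates (n = 12 throughout), and genotype cannot be told apart from the history of the picked KO colonies.

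Oxidative phosphorylation makes most of the ATP of a respiring cell. Complexes I and II pass electrons from NADH and succinate to ubiquinone, complex III passes them to cytochrome c and complex IV to oxygen, while complexes I, III and IV pump protons across the inner mitochondrial membrane and complex V, the ATP synthase, lets them flow back. Most subunits are encoded in the nucleus and a core set in mitochondrial DNA, and several complex IV subunits exist as paired isoforms of which one is used in most tissues and the other in heart and skeletal muscle, lung or testis. REV-ERBs are heme-binding repressors of the circadian clock that act through ROR elements, and in muscle REV-ERBα is known to favour mitochondrial content. None of the 13 mitochondrially encoded subunits was found under its name among the genes analysed here, so the values below concern the nuclear subunits alone.

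A few symbols follow the naming pattern without being stable parts of the complex they are listed under. Ndufa4 is now regarded as a complex IV subunit, Ndufa4l2 is its hypoxia-inducible relative, Cox7a2l is a factor that joins complexes III and IV into supercomplexes, and Atp5s and Atp5sl are not among the ATP synthase subunits proper. They were kept under the complex of their name.

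The libraries held from 6183500.5 to 10287969 fragments on exons, of which the subunits took between 0.582 and 0.708%. Values were deposited as RPKM, that is reads scaled to exonic length and to the library total, so levels can be compared between genes within limits. Of 85 subunits matched to a transcript, 16 had more than 10% of their 101-base stretches in other annotated genes. Such reads could be placed elsewhere or removed by the mapping quality filter, so the levels and ranks of those subunits are less certain. Coordinates are those of GRCm38/mm10 in the table. In bulk RNA fewer cells of a type and less RNA per cell cannot be told apart. The targeted genes were still detected, Nr1d1 (REV-ERBα) at 3.58 to 7.48 RPKM in WT and 2.48 to 9.74 RPKM in KO, and Nr1d2 (REV-ERBβ) at 0.895 to 3.02 RPKM in WT and 1.38 to 5.27 RPKM in KO. The deletions removed an exon of each gene, so a level over the whole gene does not check the genotype labels. In a list of 6 clock genes 3 were higher in KO and none was lower, beside 11.2 and 14.7% of all genes (limma, adjusted p under 0.05). The cell populations were mixed, and markers of 8 cell types were followed. Among them 13 of 15 rows for striated muscle markers were higher in KO, where Nppa has 2 rows, and 1, Tnnt2, was lower. Beside the marker counts given here, 11.2% of all genes tested were higher and 14.7% lower in KO (limma, adjusted p under 0.05). The summed striated markers ran from 55.9 to 107 in WT and from 85.7 to 172 RPKM in KO, with none at 0. Markers of smooth muscle (4 of 6 higher) and mural cells (3 of 6 higher) and of neurons (2 of 5 lower, summed median 10.6 RPKM in WT against 3.81 in KO) also differed, 1 of 2 brown adipocyte markers was higher (Cidea, while Ucp1 lay below the minimum for testing), and none of the tested markers of undifferentiated ES cells (3), germ cells (2) or endoderm (6) passed the test.

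Promoter sequences of the 7 subunits called between genotypes that had one in the table used are given first, with that of Cox6b1, the partner of the only subunit called lower in KO. RefSeq (GRCm38.p6) promoters running from 250 bases before to 50 bases after the transcription start were matched for 67 of the 86 genes. The 250 bases upstream of the start are printed below, 5′ to 3′ on the strand of the gene. Capitals mark matches on either strand to CCAAT (read by NF-Y, printed as ATTGG on the other strand), to CCGGAAG (read by ETS factors such as GABPA, CTTCCGG on the other strand), to GCGCNTGCG (read by NRF1) and to AAGATGGCG (read by YY1).
Cycs (chr6:50566570-50566819, minus strand): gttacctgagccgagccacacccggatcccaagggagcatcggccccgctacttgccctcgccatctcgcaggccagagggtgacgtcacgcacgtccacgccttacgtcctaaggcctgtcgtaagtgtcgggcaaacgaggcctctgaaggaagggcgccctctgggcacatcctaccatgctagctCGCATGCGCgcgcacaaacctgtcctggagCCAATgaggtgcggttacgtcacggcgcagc
Uqcr10 (chr11:4704345-4704594, minus strand): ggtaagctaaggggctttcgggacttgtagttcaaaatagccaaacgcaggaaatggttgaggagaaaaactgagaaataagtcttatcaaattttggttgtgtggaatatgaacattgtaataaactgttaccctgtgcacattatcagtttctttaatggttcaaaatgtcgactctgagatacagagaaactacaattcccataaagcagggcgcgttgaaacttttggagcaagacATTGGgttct
Ndufv3 (chr17:31519865-31520114, plus strand): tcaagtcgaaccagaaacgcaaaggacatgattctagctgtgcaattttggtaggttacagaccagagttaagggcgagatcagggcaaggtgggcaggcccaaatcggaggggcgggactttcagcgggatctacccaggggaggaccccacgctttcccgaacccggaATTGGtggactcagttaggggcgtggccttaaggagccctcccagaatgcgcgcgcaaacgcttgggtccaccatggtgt
Ndufs6 (chr13:73328483-73328732, minus strand): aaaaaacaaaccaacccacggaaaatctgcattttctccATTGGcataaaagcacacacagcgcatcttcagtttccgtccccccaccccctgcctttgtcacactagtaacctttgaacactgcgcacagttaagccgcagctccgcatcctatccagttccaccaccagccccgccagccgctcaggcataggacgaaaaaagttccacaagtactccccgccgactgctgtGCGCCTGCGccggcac
Ndufb6 (chr4:40279422-40279671, minus strand): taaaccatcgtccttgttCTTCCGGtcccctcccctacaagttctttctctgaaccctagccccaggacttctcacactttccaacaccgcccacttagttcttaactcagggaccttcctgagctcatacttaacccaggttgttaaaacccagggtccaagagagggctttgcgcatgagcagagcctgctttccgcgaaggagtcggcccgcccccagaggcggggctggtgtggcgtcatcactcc
Atp5j (chr16:84834977-84835226, minus strand): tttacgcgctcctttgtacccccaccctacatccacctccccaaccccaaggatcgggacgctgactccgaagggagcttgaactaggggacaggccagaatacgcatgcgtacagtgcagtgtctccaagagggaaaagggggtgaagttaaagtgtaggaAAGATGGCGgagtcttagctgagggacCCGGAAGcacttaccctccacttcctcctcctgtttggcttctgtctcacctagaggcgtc
Cox6b2 (chr7:4753095-4753344, minus strand): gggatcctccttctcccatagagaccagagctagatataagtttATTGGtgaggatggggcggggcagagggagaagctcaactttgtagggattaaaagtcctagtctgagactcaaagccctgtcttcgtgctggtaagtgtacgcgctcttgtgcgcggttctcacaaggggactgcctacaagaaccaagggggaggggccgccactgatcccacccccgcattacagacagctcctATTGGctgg
Cox6b1 (chr7:30626115-30626364, minus strand): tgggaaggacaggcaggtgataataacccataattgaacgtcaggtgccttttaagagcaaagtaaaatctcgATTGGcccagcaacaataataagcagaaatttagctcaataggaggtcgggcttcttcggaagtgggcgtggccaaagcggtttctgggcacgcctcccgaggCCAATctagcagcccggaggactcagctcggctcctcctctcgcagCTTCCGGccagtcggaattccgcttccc

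CCAAT boxes stood in different places, starting at −31 relative to the transcription start in Cycs, −10 in Uqcr10, −80 in Ndufv3, −211 in Ndufs6, −206 and −9 in Cox6b2, and −177 and −74 in Cox6b1, and none was found in Ndufb6 or Atp5j. The NRF1 letters were found at −61 in Cycs and −16 in Ndufs6, the ETS letters at −232 in Ndufb6, −61 in Atp5j and −28 in Cox6b1, and the YY1 letters at −88 in Atp5j. The RefSeq starts of Cycs, Atp5j and Cox6b1 differ from the gene ends in the expression table, so these positions count from the RefSeq start. Over the 300 bases, CCAAT was found in 30 of 67 subunit promoters (44.8%) against 37.9% of the 11004 promoters of all tested genes, and in 5 of the 7 matched promoters of subunits that differed between genotypes. The NRF1 letters were found in 23 subunit promoters (34.3% against 12.8% of all), the ETS letters in 16 (23.9% against 16.8%), and the YY1 letters in 7 (10.4% against 2.98%). In the 7 matched promoters of subunits that differed, the NRF1 letters were found in 3 (42.9%). The ETS and the YY1 letters were each found in 2 of these 7 (28.6%). The ETS and YY1 letters can overlap at AAG. NRF1, GABPA and YY1 are long known as activators of nuclear genes for the respiratory chain. The E-box CACGTG, read by CLOCK and BMAL1, was found in 5 (7.46% against 9.81%), and neither form of the ROR element, ANTAGGTCA or ANTGGGTCA, was found in any of the 67, against 1.02% of all. A match of letters in this window is a description of the sequence and does not show binding or its absence. The promoters of Cox6a2, Cox4i2, Ndufa4l2, Uqcrq and Cox6c were not in the table used.

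Of the 86 genes, 82 exceeded the minimum of 0.5 RPM (reads scaled to the library total alone) on average in either genotype and were tested. Cox4i2 did so only through KO. Of the 81 subunits above the minimum in both genotypes 9 were higher and 1 was lower. The others, Cox7a1, Cox8b, Cox7b2 and Cox8c, are the second isoforms of complex IV subunits and are described with their families. The subunits were slightly higher in KO as a group, 11 of 82 differed between genotypes by limma at an adjusted p of 0.05, and 8 of these had log2 differences between 0.12 and 0.20. Cox6a2, the heart and skeletal muscle isoform of complex IV subunit 6a, rose most, and Cox6b2, the testis isoform of subunit 6b, was the only subunit called lower. The 10 subunits that were higher in KO make up 12.2% of those tested, beside 11.2% of all 15112 genes, and the 1 that was lower makes up 1.22% beside 14.7%. In either direction 13.4% of the subunits differed, beside 25.9% of all genes. At an unadjusted p of 0.05, 26 subunits were higher and 1 was lower, beside 16.3 and 21.6% of all genes.

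Most subunits shifted upward by a similar small amount. The difference in log2(RPKM + 0.1), KO minus WT, was above 0 for 73 of 82 subunits, beside 45.9% of all genes. Its median was 0.067, or 4.73%, beside a median of −0.013 for all genes tested. KO and WT libraries overlapped for every subunit, with 0 of 82 separated, beside 0.609% of all genes. For 27 subunits KO was higher at 10 or more of the 12 time points, beside 13.9% of all genes.

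**Figure D1:**
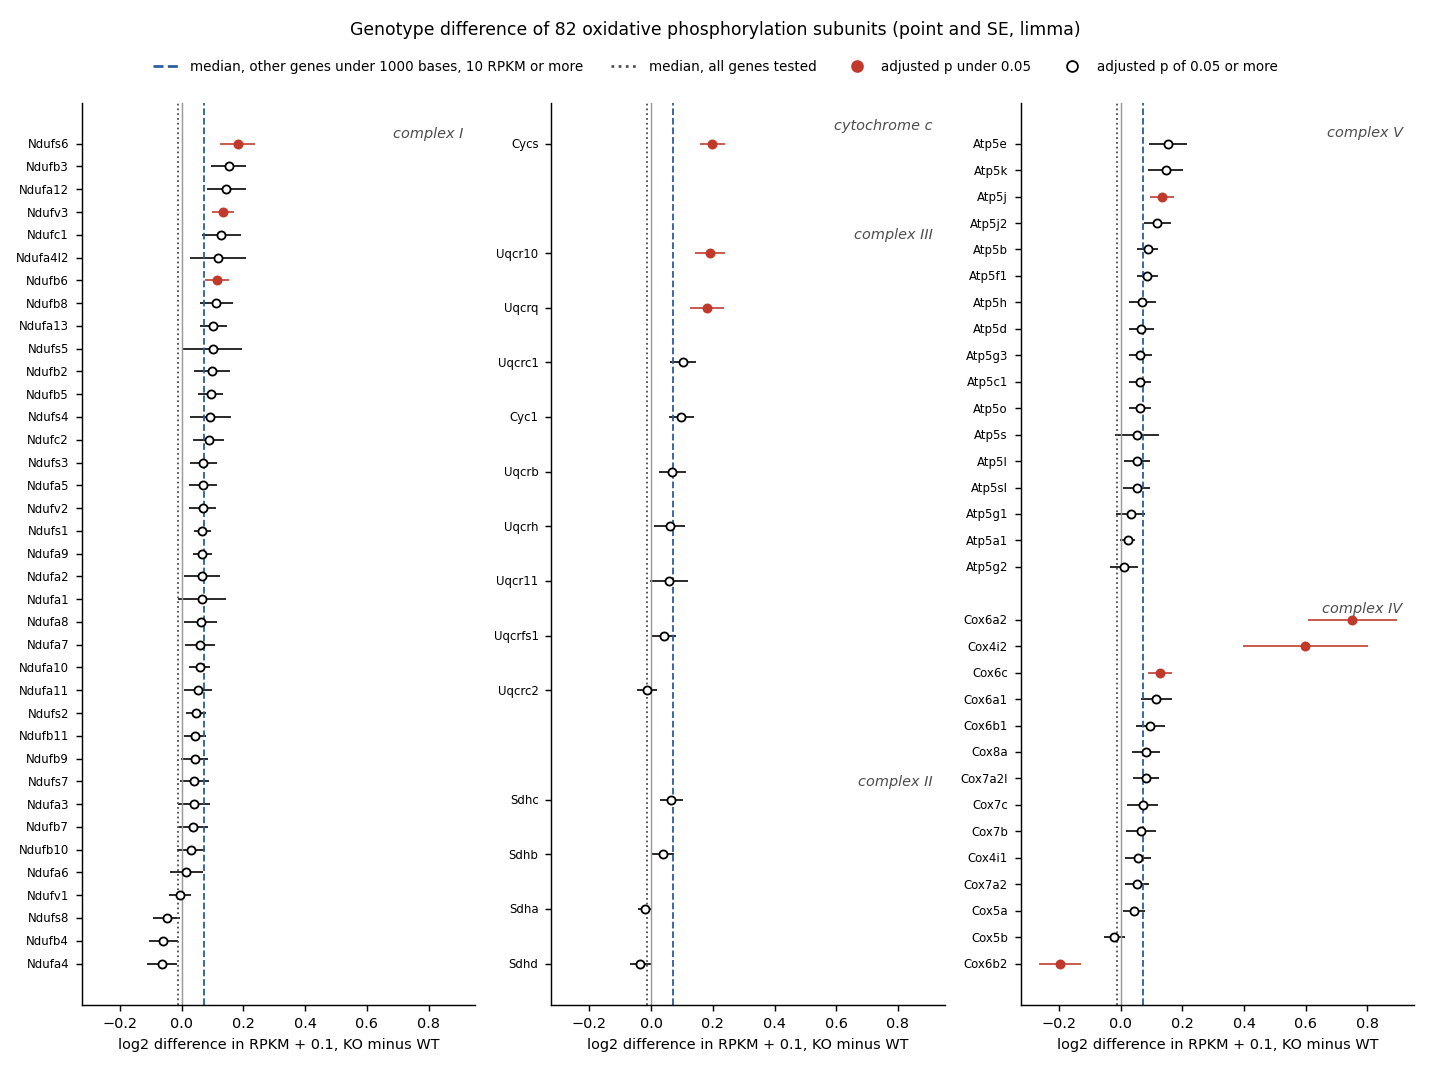
Difference between genotypes for the 82 tested subunits, by complex, as log2(RPKM + 0.1) in KO minus WT on the horizontal axis, with points for the estimate, bars for its SE and red for an adjusted p under 0.05. Most points lie to the right of 0 and near the dashed line, which is the median of 525 other genes of 10 RPKM or more and under 1000 exonic bases (0.071), while Cox6a2 (0.75) and Cox4i2 (0.60) lie far to the right and Cox6b2 (−0.20) to the left.

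The size of this shift was also seen in other short genes. Among other genes at 10 RPKM or more, the median log2 difference was 0.071 for the 525 genes under 1000 exonic bases, of which 77.1% were above 0, and it was 0.036 from 1000 to 2000 bases, 0.0052 from 2000 to 4000 bases and −0.029 at 4000 bases or more. The 52 subunits of that level under 1000 bases had a median of 0.067 with 92.3% above 0, and the 18 from 1000 to 2000 bases a median of 0.066 with 83.3% above 0, where the other genes of that length gave 65.1%. The 83 cytosolic ribosomal protein genes had a median of 0.15, and all 83 were above 0. When the trend of each library on exonic length was removed, an alternative chosen after seeing the data, the subunit median fell to 0.025, 56 of 82 were above 0, and the calls split into 10 higher and 6 lower instead of 10 and 1. Those 6 were Cox5b, Ndufb4, Ndufs8, Ndufa4, Sdhd and Cox6b2. The same fit called 26.2% of all genes, with 13.4% of all genes higher. Of the 11 calls 7 were kept, while Cox6c (adjusted p = 0.0569, limma), Ndufs6 (0.0610), Atp5j (0.172) and Ndufb6 (0.237) no longer passed. The part of transcript length or RNA quality in the shift was not tested beyond these values.

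The subunits also moved together from library to library. The deviation of each library from its genotype mean, taken as the median over subunits, had a Pearson r of 0.976 with the same median over 1187 other genes under 1000 bases, 0.919 with that of the ribosomal protein genes and 0.562 with that of all genes tested, over 24 libraries that are shared by both measures. The libraries WT 20 h (0.19), KO 36 h (0.16) and WT 40 h (0.14) stood highest. Without these libraries 30 subunits were higher in KO and none was lower, beside 11.6% of all genes higher, and the median was 0.086. This is a setting chosen after seeing the data. Leaving out WT 20 h alone gave 23 calls and leaving out WT 40 h alone gave 20. Leaving out KO 36 h alone gave 10 calls with a median of 0.052. These fits called 27.5, 26.4 and 24.2% of all genes.

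**Figure D2:**
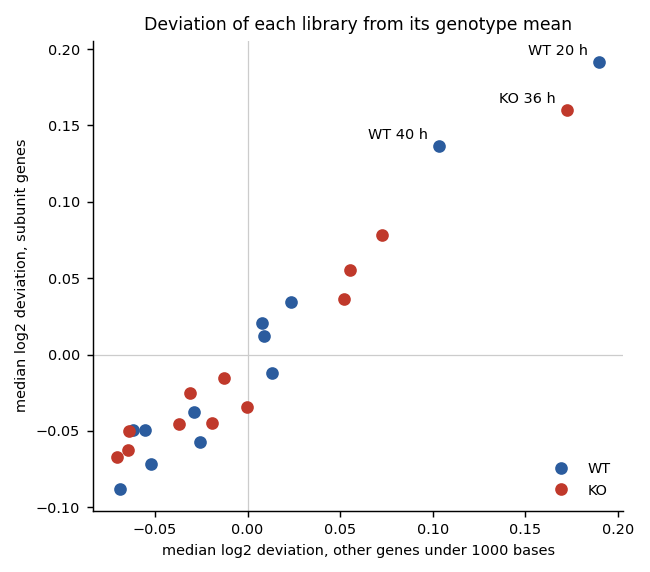
Each point is 1 library, with the median log2 deviation from its genotype mean over 1187 other genes under 1000 exonic bases on the horizontal axis and over the subunits on the vertical axis, in blue for WT and red for KO. WT 20 h, KO 36 h and WT 40 h lie at the upper right in both measures.

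Within a genotype the median pairwise correlation of subunits at 10 RPKM or more (73 genes, 12 libraries) was 0.608 in WT and 0.540 in KO, against 0.0981 and 0.0567 for all 3593 genes at that level. By complex it was highest in complex IV in WT (0.709) and in complex V in KO (0.648), and lowest in complex II (0.471 in WT and 0.273 in KO). These values describe genes that share libraries and depth.

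Summed over its subunits, complex I measured 901 ± 59.6 RPKM (SD) in WT and 936 ± 52.3 RPKM in KO. Complex II measured 117 ± 5.44 and 118 ± 4.04 RPKM, and complex III 372 ± 26.3 and 397 ± 25.6 RPKM. Complex IV measured 816 ± 59.0 and 859 ± 47.6 RPKM, and complex V 937 ± 53.0 and 987 ± 50.8 RPKM. The ratio of KO to WT was thus between 1.01 for complex II and 1.07 for complex III, and in each of the 5 complexes the means differed by less than the SD between libraries of either genotype. All subunits together gave 3146 ± 201 RPKM in WT against 3300 ± 175 in KO, a ratio of 1.05, with KO higher at 10 of 12 time points. Within each complex the highest WT library was that of 20 h and the highest KO library that of 36 h.

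**Figure D3:**
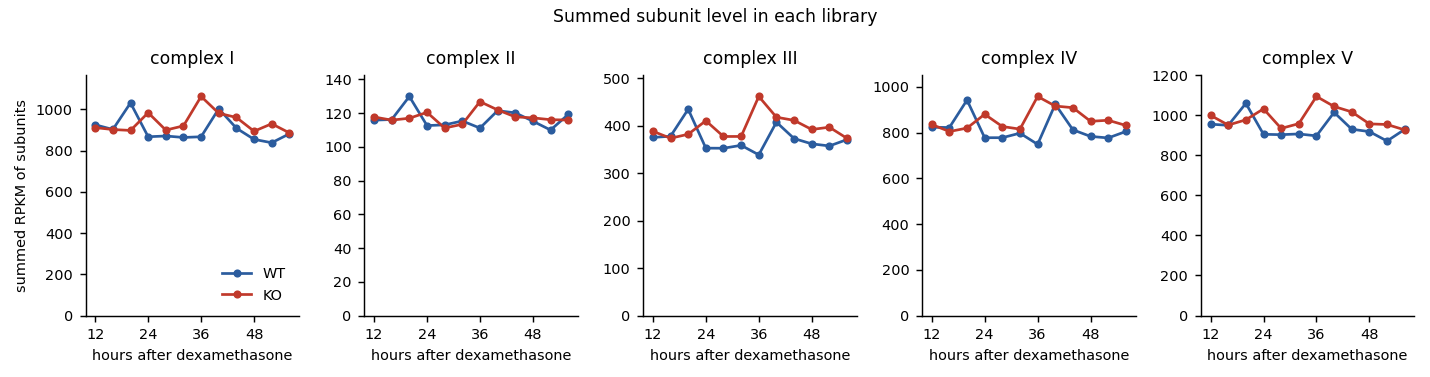
Summed RPKM of the subunits of each complex in every library against hours after dexamethasone, in blue for WT and red for KO. The WT lines peak at 20 h and the KO lines at 36 h in every complex, and the sum over all subunits stood higher in KO at 10 of the 12 hours sampled.

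In complex I, 3 of 37 subunits were higher in KO (Ndufv3, Ndufs6 and Ndufb6), none was lower, and 33 of 37 differences were above 0 with a median of 0.067. Ndufv3, an accessory subunit of the NADH-oxidizing module, lies at chr17:31520115-31531325 and ranged from 16.5 to 20.8 RPKM in WT (median 18.2) and from 18.4 to 22.4 RPKM in KO (median 19.9). KO was higher at 11 of 12 time points, and the log2 difference was 0.13 ± 0.035 (SE, limma, adjusted p = 0.00620). Ndufs6, a zinc-binding subunit needed late in assembly, ranged from 16.9 to 23.7 in WT and from 20.5 to 27.9 RPKM in KO, higher at 9 of 12 time points (0.18 ± 0.057, adjusted p = 0.0212).

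Ndufb6, an accessory subunit of the membrane arm, had a median of 19.3 RPKM in WT against 21.5 in KO (0.12 ± 0.040, limma, adjusted p = 0.0340). Its call was held in 15 of the 24 fits that left out a library, where the adjusted p ran up to 0.0625. It was lost without WT 24, 28, 32, 36 or 52 h or without KO 12, 24, 44 or 48 h, each left out alone. In the annotation 39.0% of its exonic bases overlap Smim27 on the opposite strand. The use of strand in counting is not given in the sources used here, so reads of the pair may not have been separated. Ndufa4 was the most abundant gene under complex I at 83.9 ± 7.05 RPKM in WT against 80.2 ± 7.19 in KO, and Ndufa11, a membrane arm subunit, the least abundant at 6.33 ± 0.555 and 6.56 ± 0.452 RPKM. Neither passed the test (adjusted p = 0.352 and 0.427), although Ndufa4 was called lower (−0.13, adjusted p = 0.0197) once the length trend was removed. Apart from these, the core subunits of the electron path showed small differences that did not pass, between −0.049 for Ndufs8 and 0.071 for Ndufs3.

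Complex II, succinate dehydrogenase, had the smallest median difference. None of its 4 subunits passed the test, and the log2 differences lay between −0.035 for Sdhd and 0.066 for Sdhc, with a median of 0.0092. All 4 have more than 1000 exonic bases, from 1065 in Sdhb to 2844 in Sdha, where the shift of other genes was also smaller. With the length trend removed Sdhd was called lower in KO. The part of length in the small difference of complex II was not tested. Sdha, the flavoprotein that oxidizes succinate and a long transcript of 2844 bases, ranged from 26.6 to 29.3 in WT and from 26.0 to 29.8 RPKM in KO (−0.019 ± 0.023, limma, adjusted p = 0.585). The most abundant, the membrane anchor Sdhd, had 31.7 ± 2.17 RPKM in WT against 30.9 ± 1.33 in KO, and the least abundant, the iron-sulfur subunit Sdhb, 27.0 ± 1.37 and 27.8 ± 1.99 RPKM. The KO and WT ranges overlapped for all 4.

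In complex III, 2 of 9 subunits were higher in KO, Uqcr10 and Uqcrq, both small subunits outside the catalytic core, and 8 of 9 differences were above 0 with a median of 0.069. Uqcr10 lies at chr11:4701968-4704344 and ranged from 33.9 to 47.0 RPKM in WT (median 37.4) and from 40.4 to 51.1 RPKM in KO (median 42.7), higher at 10 of 12 time points. The log2 difference was 0.19 ± 0.048 (limma, adjusted p = 0.00484). The groups overlap through the WT libraries of 12 h (43.2 RPKM) and 20 h (47.0 RPKM), while the other 10 WT libraries lie below the lowest KO library. Uqcrq, at chr11:53428948-53430831, ranged from 48.4 to 67.5 in WT and from 56.2 to 79.7 RPKM in KO (0.18 ± 0.056, adjusted p = 0.0183). The genes whose log2 values followed Uqcrq most closely over the 24 libraries were Rps13 (r = 0.939), Rps24 (0.920) and Rpl35 (0.917). These r include the difference between genotypes.

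The electron-carrying subunits of complex III did not pass the test. Cyc1, cytochrome c1, had 28.1 ± 1.90 RPKM in WT against 30.1 ± 2.12 in KO (0.098 ± 0.041, limma, adjusted p = 0.0791). Uqcrfs1, the Rieske iron-sulfur protein and the least abundant member, had 25.1 ± 1.81 and 25.8 ± 1.52 RPKM (adjusted p = 0.452). Uqcrh, the hinge protein between cytochrome c1 and cytochrome c, was the most abundant at 73.9 ± 5.92 and 77.1 ± 7.19 RPKM (adjusted p = 0.397).

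Cycs, the somatic cytochrome c that carries electrons between complexes III and IV and activates caspases once released, was higher in KO at each of the 12 time points. It lies at chr6:50562563-50566474 and ranged from 3.22 to 4.04 RPKM in WT (median 3.60) and from 3.70 to 4.68 RPKM in KO (median 4.11), with overlap of the groups. The log2 difference was 0.20 ± 0.041 (limma, adjusted p = 0.00111), held in all 24 fits that left out a library. At 3056 exonic bases Cycs is the longest of the 86 genes, and it remained called with the length trend removed. Of its 101-base stretches 24.6% also occur in other annotated genes such as Gm10053, so part of its reads could be placed elsewhere or removed by the mapping quality filter.

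In complex IV, cytochrome c oxidase, 3 of 14 tested subunits were higher in KO (Cox6a2, Cox6c and Cox4i2), 1 was lower (Cox6b2), and 12 of 14 differences were above 0 with a median of 0.076. Of these 4, Cox6a2, Cox4i2 and Cox6b2 are second isoforms at low or moderate level. The constitutive partners Cox6a1, Cox4i1 and Cox6b1 had log2 differences of 0.12, 0.057 and 0.096, none of which passed the test. Cox6c, a constitutive subunit, ranged from 52.2 to 70.6 in WT and from 59.3 to 69.8 RPKM in KO (0.13 ± 0.039, limma, adjusted p = 0.0188), higher at 10 of 12 time points. Of its 101-base stretches 11.2% also occur in the annotated gene Cox6c2.

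Cox6a2 lies at chr7:128205435-128206366 and replaces Cox6a1 in heart and skeletal muscle. It measured 1.10, 1.70, 1.72, 2.93, 2.26, 2.39, 2.32, 2.14, 3.53, 3.21, 2.35 and 2.26 RPKM in WT from 12 to 56 h, and 4.01, 2.74, 2.84, 3.42, 3.96, 3.66, 3.79, 4.05, 3.34, 5.06, 4.52 and 5.48 RPKM in KO. KO was above WT at every time point but 44 h, and the groups overlap between 2.74 and 3.53 RPKM. The mean rose from 2.33 ± 0.667 to 3.91 ± 0.818 RPKM, a log2 difference of 0.75 ± 0.14 (limma, adjusted p = 5.42e-04), on a mean of 26.9 and 45.2 fragments per library. Cox6a2 was called in all 24 fits that left out a library and with the length trend removed. In the annotation 10.6% of its exonic bases overlap Itgad on the opposite strand, and the use of strand in counting is not given.

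Most striated muscle markers were also higher in KO (13 of 15 rows), while 1, Tnnt2, was lower, beside 11.2 and 14.7% of all genes. Actc1, cardiac actin, measured 11.2 ± 3.33 RPKM in WT against 22.1 ± 4.98 in KO, and Myl2, ventricular myosin light chain, 4.15 ± 1.43 and 11.9 ± 4.15 RPKM. The Pearson r of Cox6a2 with the summed markers was 0.659 in WT and 0.474 in KO, over 12 libraries each. For the muscle isoform Cox7a1 it was 0.677 in WT but −0.354 in KO, and for Cox8b 0.554 and 0.402. Over all 24 libraries the genes most like Cox6a2 were Tnni1 (r = 0.863), Klf10 (0.850), Mb (0.848), Myl2 (0.838) and Myoz2 (0.836). Genotype means were not removed for these r, so other genes that are higher in KO correlate with Cox6a2 through the genotype difference. The part of striated muscle cell number in the Cox6a2 difference was not tested. The other muscle isoforms were scarcer. Cox7a1 had 0.905 ± 0.235 RPKM in WT against 1.09 ± 0.263 in KO (two-sided permutation test, p = 0.0871), and Cox8b 0.278 ± 0.150 and 0.336 ± 0.177 RPKM (p = 0.388, the same test), on means of 5.83 and 1.75 fragments per WT library.

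Cox4i2, at chr2:152754173-152765037, is an isoform of the lung, vessel walls and oxygen-sensing cells that hypoxia induces. It ranged from 0.193 to 1.10 RPKM in WT (median 0.399) and from 0.403 to 1.36 RPKM in KO (median 0.713), higher at 10 of 12 time points, with broad overlap. Its log2 difference was 0.60 ± 0.20 (limma, adjusted p = 0.0317), and the call was lost without WT 12, 24, 40 or 44 h or KO 36 or 44 h, each left out alone (adjusted p up to 0.0589). Cox4i2 was tested only because its KO mean of 0.559 RPM passed the minimum, which its WT mean of 0.366 RPM did not, so its p carries no weight as support. With 6.62 fragments per WT library and 9.79 per KO library its counting error is large. Of 10 hypoxia response genes 9 were higher in KO and none was lower, beside 11.2 and 14.7% of all genes tested. The sum of these 10 genes was higher at 12 of 12 time points. The part of hypoxia in the Cox4i2 difference was not tested. Cox4i2 had a Pearson r with that sum of 0.651 in WT and 0.0478 in KO, and with the summed mural cell markers of 0.219 and 0.142.

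Cox6b2, at chr7:4751792-4753094, is the testis isoform of the subunit that faces cytochrome c. It measured 12.3, 14.0, 16.4, 13.8, 11.7, 11.5, 11.1, 11.7, 9.75, 10.3, 10.6 and 9.97 RPKM in WT from 12 to 56 h, and 9.54, 10.5, 10.7, 11.5, 9.71, 10.7, 10.8, 10.9, 10.9, 9.07, 9.88 and 9.49 RPKM in KO. WT stood above KO at 11 of 12 time points, with the widest gaps from 12 to 24 h, and the late WT libraries overlap the KO range. The mean fell from 11.9 ± 1.96 to 10.3 ± 0.743 RPKM, a log2 difference of −0.20 ± 0.069 (limma, adjusted p = 0.0385), held in 15 of the 24 fits that left out a library, with adjusted p up to 0.0691, and lost without WT 12, 16, 20 or 24 h or KO 12, 28, 48, 52 or 56 h. From 36 to 56 h alone the difference was −0.056 (adjusted p = 0.579). The germ cell markers that could be tested (2 of 6 listed) did not pass the test, and the summed markers lay between 0.703 and 1.10 RPKM in WT and 0.767 and 1.13 RPKM in KO.

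**Figure D4:**
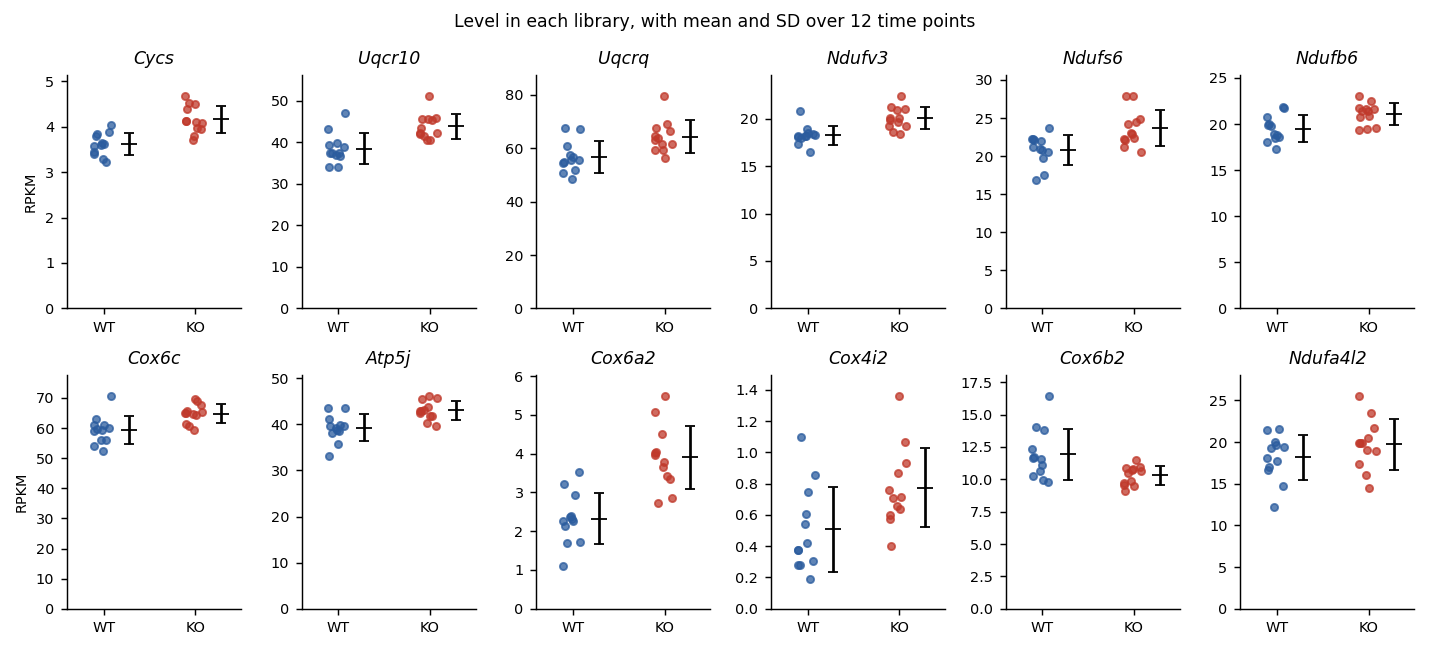
RPKM in each library for the 11 subunits that differed between genotypes and for Ndufa4l2, which did not (adjusted p = 0.351), in blue for WT and red for KO, with black bars for the mean and SD over 12 time points. The KO mean is higher in every panel except that of Cox6b2, and the groups overlap in all of them.

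Expressed as a share of its pair, Cox6b2 made up 12.3 ± 1.40% of the summed Cox6b RPKM in WT and 10.2 ± 0.668% in KO, lower in KO at 12 of 12 time points. Cox6a2 made up 1.92 ± 0.616% of Cox6a RPKM in WT and 2.91 ± 0.583% in KO, higher in KO at 10 of 12. Cox4i2 made up 0.285 ± 0.148% of Cox4 RPKM in WT and 0.418 ± 0.118% in KO, also higher at 10 of 12. The constitutive isoforms thus gave 85.1% or more of their family in every library of these pairs, and Cox4i1, at 176 ± 13.8 RPKM in WT against 183 ± 12.5 in KO, was the most abundant subunit of complex IV.

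Families with more than a pair of expressed members kept similar proportions. Cox7a2l and Cox7a2 made up 57.0 ± 1.27% and 41.6 ± 1.39% of Cox7a RPKM in WT and 57.3 ± 1.90% and 41.1 ± 1.80% in KO, and Cox7a1 1.38 ± 0.369% and 1.58 ± 0.394%. The lowest share of Cox8a in the Cox8 RPKM of a library was 99.5%, Cox8b made up 0.248 ± 0.131% in WT and 0.287 ± 0.153% in KO, and Cox8c, an isoform of testis, was listed at 0 in all 24 libraries. Cox7b2 was listed at 0 in all WT libraries and at 0.0471 RPKM in 1 KO library (28 h), while its partner Cox7b had 25.2 ± 2.36 RPKM in WT against 26.3 ± 2.04 in KO.

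**Figure D5:**
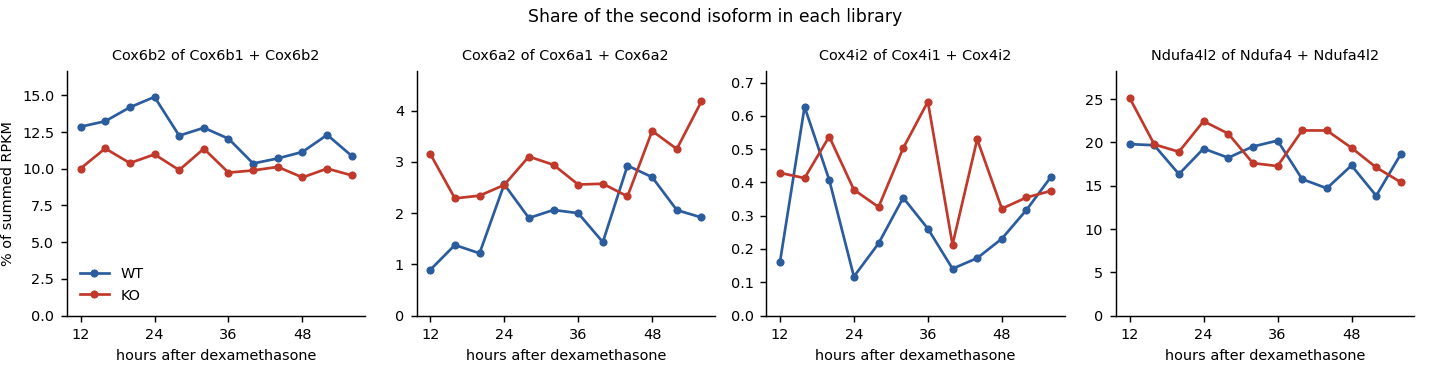
Share of the second isoform in the summed RPKM of its pair, in percent, in each library against hours after dexamethasone, in blue for WT and red for KO. The Cox6b2 share lies lower in KO at 12 of 12 time points, the shares of Cox6a2 and Cox4i2 lie higher in KO at 10 of 12 each, and the Ndufa4l2 lines cross.

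Ndufa4l2, which hypoxia induces and which mural cells express strongly, lies at chr10:127514939-127517156 and ranged from 12.3 to 21.6 RPKM in WT (median 18.7) and from 14.5 to 25.5 RPKM in KO (median 19.9). Its log2 difference of 0.12 ± 0.090 did not pass the test (limma, adjusted p = 0.351), and its share of the pair with Ndufa4 was 17.8 ± 2.16% in WT and 19.7 ± 2.71% in KO, higher in KO at 9 of 12 time points. Beside the hypoxia genes its Pearson r was 0.185 in WT and 0.643 in KO, and beside the mural markers 0.279 and 0.561. The hypoxia genes themselves showed larger differences, for example Slc2a1, the glucose transporter GLUT1, with 82.8 ± 9.94 RPKM in WT against 113 ± 16.8 in KO, and Ldha, lactate dehydrogenase A, with 179 ± 17.6 and 220 ± 18.3 RPKM.

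In complex V, the ATP synthase, 1 of 17 genes was higher in KO (Atp5j), none was lower, and all 17 differences were above 0 with a median of 0.065. Atp5j, coupling factor 6 of the peripheral stalk, lies at chr16:84827871-84835001 and ranged from 33.1 to 43.6 RPKM in WT (median 39.4) and from 39.6 to 46.1 RPKM in KO (median 42.9), higher at 10 of 12 time points (0.13 ± 0.038, limma, adjusted p = 0.0122). Atp5j2, a small membrane subunit, and Atp5b, the catalytic beta subunit, came next and just missed the threshold (0.12 ± 0.045, adjusted p = 0.0506, and 0.087 ± 0.033, adjusted p = 0.0523). Atp5b passed it without WT 20 or 40 h or KO 28, 32, 52 or 56 h, each left out alone. Atp5b was the most abundant gene of complex V at 150 ± 8.83 RPKM in WT against 160 ± 7.62 in KO, and under quantile normalization its difference turned to −0.029. Atp5s was the least abundant at 1.38 ± 0.214 and 1.43 ± 0.171 RPKM.

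Atp5g1, Atp5g2 and Atp5g3 encode the same mature c subunit of the rotor ring behind different import sequences. They made up 18.6 ± 0.843%, 25.8 ± 0.934% and 55.7 ± 1.19% of the summed Atp5g RPKM in WT and 18.4 ± 0.768%, 25.1 ± 0.642% and 56.5 ± 0.890% in KO. Their log2 differences of 0.033, 0.011 and 0.065 did not pass the test, and those of Atp5g1 and Atp5g2 fell below 0 under quantile normalization (−0.0043 and −0.019). Of the 101-base stretches of Atp5g1 48.1%, of Atp5g2 41.3% and of Atp5l 61.3% occur in other annotated genes, so the levels of these genes are uncertain.

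Other genes of the pathway were counted from lists. Of 45 tested assembly factors 4 were higher in KO and none was lower, beside 11.2 and 14.7% of all genes. These were Tmem70, which is needed to build the ATP synthase (7.30 ± 0.431 RPKM in WT, 8.19 ± 0.404 RPKM in KO, higher at 12 of 12 time points, limma, adjusted p = 8.73e-04), Uqcc2, which helps to build complex III (24.8 ± 1.92 and 29.5 ± 3.05 RPKM), Sdhaf4, for complex II (7.30 ± 0.744 and 8.68 ± 1.22 RPKM), and Coa5, for complex IV (10.1 ± 0.336 and 10.7 ± 0.454 RPKM). Of 26 tested rows for other chain and ATP synthase genes, only Usmg5, a small ATP synthase-associated protein, was higher (39.1 ± 3.31 and 42.6 ± 2.83 RPKM), and none was lower.

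Among regulators of mitochondrial biogenesis 1 of 22 tested rows was higher, the fatty acid-sensing receptor Ppard (3.58 ± 0.276 RPKM in WT against 4.00 ± 0.462 in KO, limma, adjusted p = 0.0468), none was lower, and the median log2 difference was −0.0062. Ppard has another row in the table, at the higher level of 8.86 ± 0.343 RPKM in WT against 9.18 ± 0.578 in KO, which did not pass (0.049, limma, adjusted p = 0.271). The tricarboxylic acid cycle feeds electrons to complexes I and II. In a list of genes of the cycle and of pyruvate dehydrogenase, 5 of 18 were higher and 1 was lower. The higher ones were Idh3a, Mdh2 and Ogdh of the cycle and Dlat and Pdha1 of pyruvate dehydrogenase. Beside the counts for the regulators and for this list, 11.2% of all genes were higher and 14.7% lower. The lower one, Idh2, mitochondrial NADP-dependent isocitrate dehydrogenase, had 82.8 ± 4.96 RPKM in WT against 70.0 ± 7.21 in KO (−0.25 ± 0.050, adjusted p = 9.02e-04), lower at 11 of 12 time points. Dlat, a pyruvate dehydrogenase subunit, had 7.16 ± 0.379 and 7.66 ± 0.294 RPKM (adjusted p = 0.0183), and Mdh2, malate dehydrogenase, 66.2 ± 4.14 and 70.8 ± 2.49 RPKM (adjusted p = 0.0262).

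Change over time was examined with a model of a linear trend and a 24 h rhythm in each genotype. By limma no subunit was rhythmic at an adjusted p of 0.05 in WT (12 at an unadjusted p of 0.05) or in KO (5 at an unadjusted p of 0.05), and no rhythm differed between genotypes (3 at an unadjusted p of 0.05). All genes gave 0.0463, 0.0728 and 0.0% at the adjusted threshold and 7.57, 7.92 and 4.82% at the unadjusted one. The smallest unadjusted p in WT were those of Ndufb3 (0.00643, limma, fitted peak at 17.2 h of the 24 h cycle) and Ndufc2 (0.00788, peak at 18.9 h), both in complex I, with fitted amplitudes of 0.20 and 0.16 on the log2 scale. In KO they were those of Sdhb (0.0224, limma, amplitude 0.10) and Atp5d, the delta subunit of the ATP synthase (0.0357, amplitude 0.11). For the difference they were those of Cox6a2 (0.0241, limma) and Ndufv2 (0.0313). The cycle is counted from dexamethasone. WT 20 h and WT 40 h, the libraries with the highest subunit levels in WT, lie near the fitted WT peaks in the first and second cycle.

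A linear trend passed the test in WT for 1 subunit, Cox6b2, and in KO for none. Beside it 2.38% of all genes passed in each genotype, and 1.26% of all genes fell in WT. At an unadjusted p of 0.05, 3 subunits in WT (15.2% of all genes) and 10 in KO (16.7% of all genes) had a trend by limma. Cox6b2 fell by 0.29 ± 0.068 per 24 h on the log2 scale in WT (limma, adjusted p = 0.0269), as its values of 16.4 RPKM at 20 h and 9.97 RPKM at 56 h show, while in KO the slope was −0.026 ± 0.068. The slopes of no subunit differed between genotypes at the adjusted threshold (3 at an unadjusted p of 0.05, limma), beside 0.0% of all genes and 6.38% unadjusted, and that of Cox6b2 had an unadjusted p of 0.0120 and an adjusted p of 0.692. In KO the smallest unadjusted p were those of Ndufa4l2 (−0.25 per 24 h, p = 0.0134, adjusted p = 0.163, limma) and Ndufv2, a subunit that carries an iron-sulfur cluster near the NADH site (−0.12 per 24 h, p = 0.0146). Ndufa4l2 also had a negative slope in WT (−0.29, adjusted p = 0.116), and Cox6a2 had positive slopes in both, 0.42 per 24 h in WT (adjusted p = 0.0974) and 0.29 in KO, none of which passed the test.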

How the data were processed

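PolyA-selected RNA of 24 libraries was sequenced by the study as 101-base read pairs. Per the labels and methods, the authors used bcl2fastq, Trimmomatic 0.36, STAR 2.5.4b (GRCm38/mm10), SAMtools (mapping quality under 10 removed) and HOMER. The authors deposited RPKM per gene over exons, not counts, and beside them the exonic length of each gene, another deposited column. Whether counting used strand is not given in the sources used here. Multiplied by length and by the total in the header, RPKM came to steps of 0.5 fragment, and these fragments serve to describe depth alone. Counting error and small numbers limit the low genes.

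RPKM were turned into log2(RPKM + 0.1), so fold changes of low genes are understated. Genes with a mean above 0.5 RPM in WT or KO were tested with limma 3.58.1 in R 4.3.3, two-sided, by genotype alone, or with a linear trend and 24 h cosine and sine terms per genotype. P-values were adjusted by the Benjamini-Hochberg method over all 15112 genes. Single genes below the minimum were compared by a permutation test with 100000 resamples. The scripts were tested on simulated data. Nothing in the labels says that time points came from separate cultures, so p-values measure the spread between libraries over time. The spread includes any change with time.

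The subunits, lists, markers and motifs were chosen with earlier results of these data known. Genes named with values were the called subunits, the most and least abundant tested gene of each complex, isoform families, Sdha, Cyc1, Cycs and Atp5b, the smallest p-values of each time test, called genes of other lists, and Nr1d1 and Nr1d2. Others named as examples were chosen after their values were seen. Alternatives covered pseudocount, filter, scaling, covariates, early and late time points, exonic length and left-out libraries. Sequences were from RefSeq. The plots and sums used Python 3.11.15 with pandas 2.3.3 and matplotlib 3.10.9.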

Additional observations from a re-analysis of the deposited data

How the results depend on the processing

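The main comparison gave 11 subunits that differed, 10 higher and 1 lower in KO, and the direction of the median held under each alternative run. The number of calls moved with the setting. With median centring it was 21 (20 higher), beside 25.9% of all genes called in the same fit. With the trend and 24 h terms as covariates it was 20 (19 higher), beside 29.9% of all genes. From 12 to 32 h alone it was 2 (1 higher), beside 7.38% of all genes. The median log2 difference of that part was 0.029, with 57 of 82 above 0. From 36 to 56 h alone it was 6 (6 higher, 0 lower), beside 12.6% of all genes. The median of that part was 0.113, with 76 of 82 above 0. Both parts held fewer libraries than the main comparison, but the size of the shift also differed between them. Without a filter on low values, with 33079 genes tested, 8 were higher and 0 were lower, beside 9.89% of all genes called. With the length trend removed, a setting added after seeing the data, 10 were higher and 6 lower, beside 26.2% of all genes. In that setting 2 subunits, Ndufb4 and Ndufv2, had a trend in KO. Without WT 20 h, WT 40 h and KO 36 h, also added later, 30 differed, 30 higher and 0 lower, beside 26.2% of all genes. Leaving out each library in turn gave 8 to 23 calls, with 8 to 23 higher and 0 to 1 lower, beside 22.4 to 27.5% of all genes. The cause was not tested where none is named.

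Small differences crossed 0. Of 82 subunits 73 were above 0 in the main comparison, 66 under quantile normalization, 57 from 12 to 32 h and 56 with the length trend removed. Among the subunits named in the text, under quantile normalization those of Cox4i1, Atp5g1, Atp5g2 and Atp5b were −0.0024, −0.0043, −0.019 and −0.029. From 12 to 32 h those of Cox4i1, Cox7b, Atp5g1 and Atp5g2 were −0.000620, −0.0014, −0.0051 and −0.040. With the length trend removed those of Cox7a2, Atp5g1 and Atp5g2 were −0.000656, −0.019 and −0.048, and that of Atp5g2 ran from −0.0040 to 0.032 over the fits that left out a library, below 0 in 3 of them.

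Same-numbered time points of the 2 genotypes had a mean r of 0.214 (from −0.226 to 0.418). Different time points had a mean r of −0.0195 (from −0.419 to 0.511). Of 24 libraries 11 correlated best with the same time point among the 12 of the other genotype. With time point as a replicate block 15 subunits differed, 14 higher and 1 lower, beside 27.9% of all genes. Among them were all 11 of the main comparison. In that block fit 2 regulators of biogenesis, 0 brown adipocyte markers and 5 clock genes were called, against 1, 1 and 3. Other lists moved with quantile normalization (7 assembly factors), with the length trend removed (7 assembly factors, 0 other chain genes) and without the 3 libraries (2 regulators, 4 other chain genes, 0 testis isoforms, 2 smooth muscle markers, 0 brown adipocyte markers). Depth limits Cox4i2, Cox7a1, Cox8b, Cox7b2 and Cox8c, each with a mean under 10 fragments per library of either genotype.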

Other observations

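The median coefficient of variation of the subunits over 12 time points was 7.96% in WT and 7.05% in KO, against 9.99% and 9.87% for all genes tested. Complex II varied least (5.96% in WT and 4.60% in KO).

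Among genes of 1 RPKM or more, those most like Cox6b2 over the 24 libraries were Slc39a13 (r = 0.822), Mocos (0.795) and Fpgs (0.794), and those most like Ndufa4l2 were Arhgef19 (0.814), Gm11532 (0.761) and Mvd (0.741). For Cycs they were Pgm2 (0.875), Atp6v1d (0.853) and Cct8 (0.852). These likenesses describe genes measured in the same libraries, and they include any difference between genotypes.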
